A study of Rattus norvegicus with 8 samples.

Results

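Gene expression in the hippocampus was compared between prolonged and acute hypobaric hypoxia, using the 2 arrays titled day 7 and the 2 arrays titled day 1, that is 4 of the 8 arrays of the series. Members were chosen by their titles, and the normoxic arrays were not used. The animals were male Sprague Dawley rats, an outbred strain; their age is not given in the sources used here. Both groups had been kept in a decompression chamber at a pressure equivalent to 25000 ft, with an effective oxygen concentration of 8%. They differed, as far as the labels say, only in duration: 1 day in the first group, and in the second 7 days by the title but 5 days by the exposure field. Day 7 is used here as the name of that group, and the labels do not settle its duration. Total RNA of the hippocampal region was amplified from its poly(A) end with an oligo dT primer, labelled with Cy3 and hybridised to 1-colour Agilent rat arrays of 60-base probes. The day 3 arrays, 2 in number, entered only the estimate of the spread and the description of the time course.

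Hypobaric hypoxia lowers the oxygen that reaches the tissue, as ascent to high altitude does. Cells sense oxygen through prolyl hydroxylases of the Egln family, which mark the alpha subunits of hypoxia-inducible factors (HIF) for destruction while oxygen is present. When it is scarce, HIF accumulates and switches on genes for glycolysis, vessel growth, iron uptake and the hydroxylases themselves. Over days, breathing, red cell number and capillary density adapt in a living animal. The hippocampus, a region needed for memory, is among the brain areas most easily harmed by lack of oxygen.

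A value is the log2 signal of a gene relative to the 75th percentile of its own array, so 0 is that percentile and a difference of 1 is 2-fold. Changes are day 7 minus day 1, with a standard error from limma (n = 2 arrays per group), and a gene was called at a Benjamini-Hochberg adjusted p under 0.05 over the 19576 genes tested. Whether the 2 arrays of a group stem from different animals is not given in the labels. For probes printed on 10 spots they differed by a median of 0.0196 on day 1 and 0.0285 on day 7, where the variation between spots alone gave 0.0172 and 0.0226. The p-values therefore rest on the spread between these particular arrays alone, and that spread may be technical. All arrays lay on 1 slide, day 1 in row 1 and day 7 in row 2, both in columns 3 and 4, so slide row and day cannot be told apart.

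The day 1 arrays stood apart in markers of the striatum, a brain region near the hippocampus that the label does not include. Of 24 tested striatal genes, 23 were lower on day 7 and 1 was higher, with a median change of -2.74. The median was -2.36 when 7 of the 8 genes below background on both day 7 arrays are set at their bound. The remaining gene had no positive bound and kept its measured change. With normexp background correction the median was -1.585, with 19 lower and 2 higher. Their summed level was 6.88 and 6.87 on the day 1 arrays and 5.04 and 5.01 on the day 7 arrays. The dopamine receptor Drd2 stood at 2.65 and 2.62 on day 1 and at -1.85 and -1.84 on day 7 (-4.48 ± 0.037, adjusted p = 9.02e-05), and its other probe gave -3.20. Both day 1 arrays were far above both day 7 arrays, and the day 3 arrays lay near day 7, at -2.02 and -1.98. Adora2a, the adenosine receptor of the same neurons, fell by 3.58 ± 0.036 (adjusted p = 9.02e-05), and the peptide precursors Penk and Tac1 fell by 3.15 ± 0.035 and 3.02 ± 0.052 (adjusted p = 0.000104 and 0.00013), Tac1 with -3.84 at its other probe. Lhx8, a factor of forebrain cholinergic and other ventral neurons, did not rise well above background on day 7, so that its fall is given as at least 23.0-fold (adjusted p = 0.00013). It was tested only through its day 1 signal, and this p-value rests in part on signals below background. The choline transporter Slc5a7 fell by 2.56 ± 0.072 (adjusted p = 0.000161). In bulk tissue, fewer cells of a type and less RNA per cell cannot be told apart. The part of these striatal transcripts in the results below was not tested.

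Markers of other neighbouring tissues moved less. Of 22 neocortex markers 14 were lower and 4 higher (median -0.45, between -0.45 and -0.18 under other scalings of the arrays), among them Etv1 at -0.80 and -0.85 on day 1 and -3.14 and -3.29 on day 7 (-2.38 ± 0.073, adjusted p = 0.000171), Lamp5 (-2.33 ± 0.079, adjusted p = 0.000182) and Mef2c (-0.96 ± 0.038, adjusted p = 0.000214). Among 16 choroid plexus markers, 8 were higher and 7 lower (median 0.12, between 0.12 and 0.39). Ttr, the thyroid hormone carrier that the plexus secretes, stood at 0.35 and 0.40 on day 1 and at 3.32 and 3.21 on day 7 (2.89 ± 0.064, adjusted p = 0.000155). Its day 3 arrays, at 7.39 and 7.28, were above all 4. Sostdc1, another plexus gene, rose by 1.35 ± 0.045 and the channel Trpv4 fell by 1.56 ± 0.037 (adjusted p = 0.000182 and 0.000155). All 21 tested pyramidal cell markers were well above background on both arrays of each day. Genes were tested only if well above background on both arrays of day 1 or of day 7. Of the 19576 genes tested, 17303 passed on both days, among them all 75 oxidative phosphorylation genes and all 79 cytosolic ribosomal proteins. The detection of pyramidal markers therefore does not show how much hippocampal tissue the samples held.

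**Figure D1:**
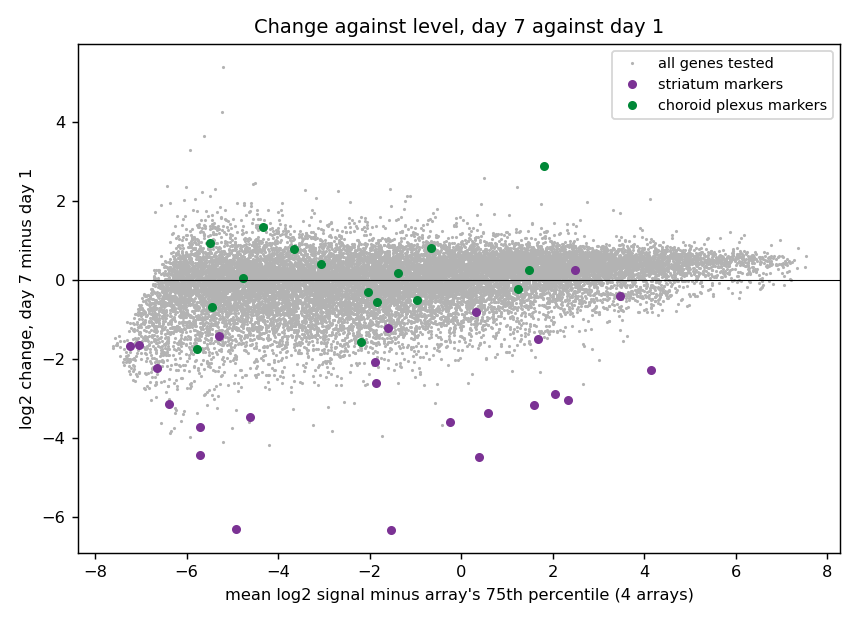
Log2 change between day 7 and day 1 (vertical axis) against the mean level over the 4 arrays (horizontal axis, log2 signal relative to the 75th percentile of the array) for the 19576 genes tested (grey), the 24 striatum markers (purple) and the 16 choroid plexus markers (green). Most striatum markers lie far below the other genes of their level, and Ttr, at 2.89, is the highest green point.

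Less sample signal reached the day 7 arrays. The 75th percentile of the processed signal, 2214 and 2247 on day 1, had dropped to 1407 and 1393 by day 7. Spots well above background made up 80.6% and 82.1% on the earlier arrays and 77.0% and 72.6% on the later ones. The spike-in control went the other way, its log2 signal being 12.72 for both arrays of day 1 but 13.11 and 13.04 for those of day 7. The change rose with the level of the gene, from a median of -0.39 in the dimmest decile to 0.40 in the brightest, with a Spearman correlation across genes of 0.34 with level and -0.24 with the GC content of the probe. Genes of 1 array are not independent replicates, and these values describe the arrays.

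The change also depended on where in the transcript a probe lay. In 1388 transcripts with probes at least 300 bases apart, the probe nearer the 3′ end gave a median change of 0.29 and the probe nearer the 5′ end -0.32. The difference within a transcript had a median of 0.61, with quartiles of 0.11 and 1.07, and the 3′ probe was the higher in 79.4% of transcripts. Between the 2 arrays of a group the same difference was -0.0075 on day 1 and 0.0044 on day 7, and between day 3 and day 1 it was 0.33. In 292 pairs whose GC content differed by at most 2 percentage points it was 0.50. A change measured by 1 probe can therefore have the opposite sign at another place of the same transcript: of 2770 genes with several probes, 453 were called higher by each probe, 343 lower by each, and 627 in opposite directions. The values of the other probes are given below where a gene has them, and the part of probe position in the result of each single-probe gene was not tested.

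**Figure D2:**
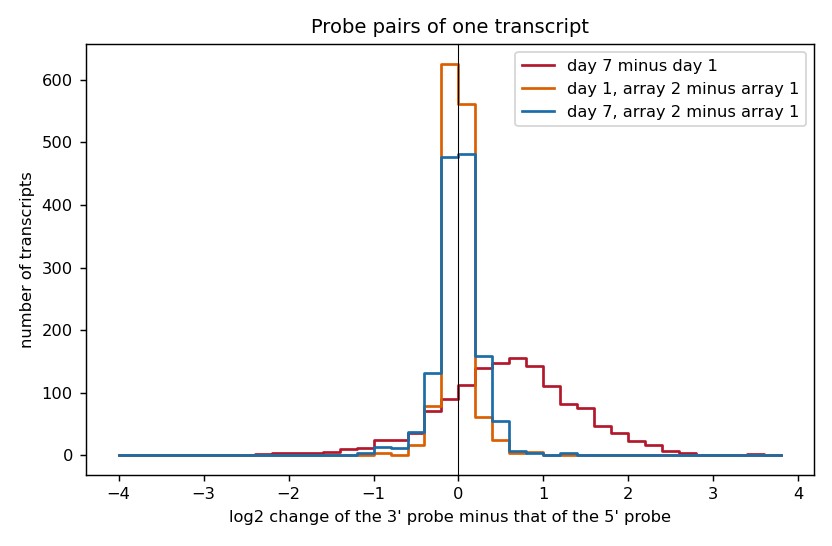
Number of transcripts (vertical axis) by the difference between the change of the 3′ probe and that of the 5′ probe (horizontal axis, log2) in 1388 transcripts, for day 7 minus day 1 (red) and for array 2 minus array 1 of day 1 (orange) and of day 7 (blue). The red curve is centred at 0.61, while the curves within a group are centred at -0.0075 and 0.0044.

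Between day 1 and day 7, 13021 of 19576 genes were called (66.5%), 7496 of them higher on day 7 (38.3% of the genes tested) and 5525 lower (28.2%). The median change of all genes was 0.080. Called changes of at least 2-fold were less common and mostly falls, with 457 genes higher (2.33%) and 1824 lower (9.32%). The filter let in 1089 genes that were below background on both day 7 arrays, but only 10 that were so on both day 1 arrays. Of the genes lower by at least 2-fold, 423 were below background on both day 7 arrays. Of those higher by at least 2-fold, 8 were so on both day 1 arrays. The part of the filter in the excess of falls was not tested. Where genes lower by at least 2-fold had several probes, all probes were lower in 80 of 134, and among genes higher by at least 2-fold all probes were higher in 27 of 65. The arrays of the groups did not overlap in 84.1% of genes. With centring on the median of each array, the median of all genes moved to 0.35 and 74.4% of calls were higher, against 57.6% here and 52.8% after cyclic loess normalization. Beside the median of a list, the lowest and highest median over 6 other scalings are therefore given, namely quantile and cyclic loess normalization, median centring, normexp background correction, the deposited values, and removal of the trend with probe GC. Counts of calls are those of the 75th percentile scaling. Each count is to be read beside the 38.3% higher and 28.2% lower among all genes. In 20 of the 44 lists the more frequent direction among the called members turned under at least 1 of the others.

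More HIF target genes were lower than higher on day 7. Of 41 tested, 26 were lower and 6 higher, with a median change of -0.42 (between -0.50 and -0.14 under the other scalings). The shares are to be read beside 28.2% lower and 38.3% higher among all genes. Under median centring 21 were lower and 14 higher, and with normexp background correction 20 and 8. Their summed level, which the brightest members dominate, was 7.42 and 7.40 on the day 1 arrays and 7.51 and 7.47 on the day 7 arrays. Of 7 members with several probes, 2 were lower and 0 higher at every probe. The promoters of 4 targets that the results turn on are shown because they carry the sequence that HIF binds. They are 300 bases of the RefSeq assembly GRCr8, 250 before and 50 after the start of the gene, 5′ to 3′ on the coding strand. Capitals mark the HIF core in the letters ACGTG or GCGTG on either strand, and neighbouring matches may overlap. The pieces lie at chr19:69804632-69804931 (minus strand, Egln1), chr16:53001257-53001556 (plus strand, Ankrd37), chr8:130400839-130401138 (minus strand, Higd1a) and chr3:77113264-77113563 (plus strand, Pdk1).
Egln1: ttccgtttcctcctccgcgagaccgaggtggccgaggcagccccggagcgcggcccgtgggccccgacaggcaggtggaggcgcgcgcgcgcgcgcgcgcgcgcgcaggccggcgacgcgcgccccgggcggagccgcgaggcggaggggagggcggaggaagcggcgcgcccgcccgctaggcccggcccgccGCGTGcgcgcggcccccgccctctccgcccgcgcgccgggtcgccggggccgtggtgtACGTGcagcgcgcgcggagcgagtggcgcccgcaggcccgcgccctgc
Ankrd37: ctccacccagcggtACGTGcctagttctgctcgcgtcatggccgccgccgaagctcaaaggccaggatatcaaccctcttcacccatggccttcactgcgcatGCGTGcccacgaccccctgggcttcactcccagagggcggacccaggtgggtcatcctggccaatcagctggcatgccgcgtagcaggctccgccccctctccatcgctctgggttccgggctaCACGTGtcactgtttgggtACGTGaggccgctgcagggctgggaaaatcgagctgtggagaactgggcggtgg
Higd1a: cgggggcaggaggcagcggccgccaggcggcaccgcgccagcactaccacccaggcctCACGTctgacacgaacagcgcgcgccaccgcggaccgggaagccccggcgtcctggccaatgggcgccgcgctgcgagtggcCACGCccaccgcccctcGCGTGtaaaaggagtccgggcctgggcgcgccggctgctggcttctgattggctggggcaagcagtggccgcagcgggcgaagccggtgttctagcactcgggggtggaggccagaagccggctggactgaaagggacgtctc
Pdk1: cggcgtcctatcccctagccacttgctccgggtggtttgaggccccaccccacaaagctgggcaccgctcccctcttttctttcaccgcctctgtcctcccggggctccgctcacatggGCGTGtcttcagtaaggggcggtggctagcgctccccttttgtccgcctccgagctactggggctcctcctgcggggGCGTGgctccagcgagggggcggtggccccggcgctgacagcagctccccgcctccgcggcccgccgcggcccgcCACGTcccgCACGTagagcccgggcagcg
The core was found 2 times in the window of Egln1, 5 times in that of Ankrd37, 3 times in that of Higd1a and 4 times in that of Pdk1. It was in 25 of the 34 HIF target promoters of the table (73.5%), against 42.9% of all 27457 promoters and 60.3% of those of oxidative phosphorylation genes. A match is a description of the letters, not a bound site.

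Among the regulators of HIF, the oxygen sensors were lower on day 7. Egln1, the main hydroxylase and itself a HIF target, stood at -0.63 and -0.61 on day 1 and at -1.80 and -1.92 on day 7 (-1.24 ± 0.054, adjusted p = 0.000239). Egln2, its paralog, stood at 1.46 and 1.40 on day 1 and at 0.20 and 0.22 on day 7 (-1.22 ± 0.040, adjusted p = 0.000178). For both genes the day 7 arrays lay clearly below the day 1 arrays, with day 3 between them. Egln3, the hydroxylase that responds most to hypoxia in many tissues, fell by 0.37 ± 0.037 (adjusted p = 0.00138), and Hif1a, the oxygen-regulated subunit, by 0.48 ± 0.071 (adjusted p = 0.00452). Under median centring these were -0.099 (adjusted p = 0.0695) and -0.21 (adjusted p = 0.0734) and were not called. Epas1, which encodes the second alpha subunit, rose by 0.30 ± 0.051 (adjusted p = 0.0074). Hif3a, an inhibitory family member near background, was at -5.57 and -5.84 on day 1 and -5.19 and -6.31 on day 7 and was not called (-0.05 ± 0.44, adjusted p = 0.934). Of the 10 regulators tested, 4 were lower and 2 higher (median -0.047, between -0.19 and 0.22 under the other scalings).

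Targets of several functions were lower on day 7. Higd1a, a mitochondrial protein, stood at -0.39 and -0.33 on day 1 and at -1.83 and -1.60 on day 7 (-1.36 ± 0.085, adjusted p = 0.000445). The vessel peptide Apln stood at 4.11 and 4.07 on day 1 and at 2.85 and 2.84 on day 7 (-1.25 ± 0.040, adjusted p = 0.000177). Slc16a3, a lactate exporter, stood at 0.16 and 0.22 on day 1 and at -0.96 and -0.90 on day 7 (-1.12 ± 0.043, adjusted p = 0.000211). In each of these genes both day 7 arrays were below both day 1 arrays by more than 1 log2 unit. Ndrg1, a stress-response protein, and Jmjd6, a dioxygenase, fell by 1.16 ± 0.047 and 1.17 ± 0.038 (adjusted p = 0.000221 and 0.000178), and Loxl2, a collagen cross-linking enzyme, by 1.105 ± 0.060 (adjusted p = 0.000341). Pdk1, which keeps pyruvate out of mitochondria, stood at -1.76 and -1.77 on day 1 and at -2.43 and -2.45 on day 7 (-0.68 ± 0.036, adjusted p = 0.000329), with day 3 already at -2.42 and -2.37. Hmox1, a heme-degrading enzyme, fell by 0.86 ± 0.036 (adjusted p = 0.000231).

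Other classical targets changed little or rose. Ankrd37 stood at 0.43 and 0.45 on day 1, at 0.46 and 0.43 on day 3 and at 0.04 and 0.02 on day 7 (-0.42 ± 0.034, adjusted p = 0.000805). Adm, a vasodilator peptide, fell by 0.36 ± 0.038 (adjusted p = 0.00168), but was not called under median centring (-0.088, adjusted p = 0.102). The glucose transporter Slc2a1 stood at 3.86 on both day 1 arrays and at 3.93 and 3.92 on day 7 and was not called (0.06 ± 0.032, adjusted p = 0.15). After quantile and cyclic loess normalization it was called lower, by -0.21 and -0.27. Tfrc, the transferrin receptor that takes up iron, rose by 0.87 ± 0.058 at its 3′ probe (adjusted p = 0.000489) and was at -0.28, not called, at the other. Bnip3l, a mitophagy receptor, rose by 0.66 ± 0.065 (adjusted p = 0.00131).

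Vegfa, the main growth factor for endothelial cells, stood high on both days. Its representative probe read 4.23 and 4.27 on day 1 and 4.002 and 4.136 on day 7 and was not called (-0.18 ± 0.070, adjusted p = 0.0803). The other 3 probes gave -0.49 and -1.76, both called lower, and 0.17, not called. The mean of its probes fell by 0.56 (adjusted p = 0.00148), and after quantile normalization the representative probe was called lower as well (-0.46, adjusted p = 0.0055).

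**Figure D3:**
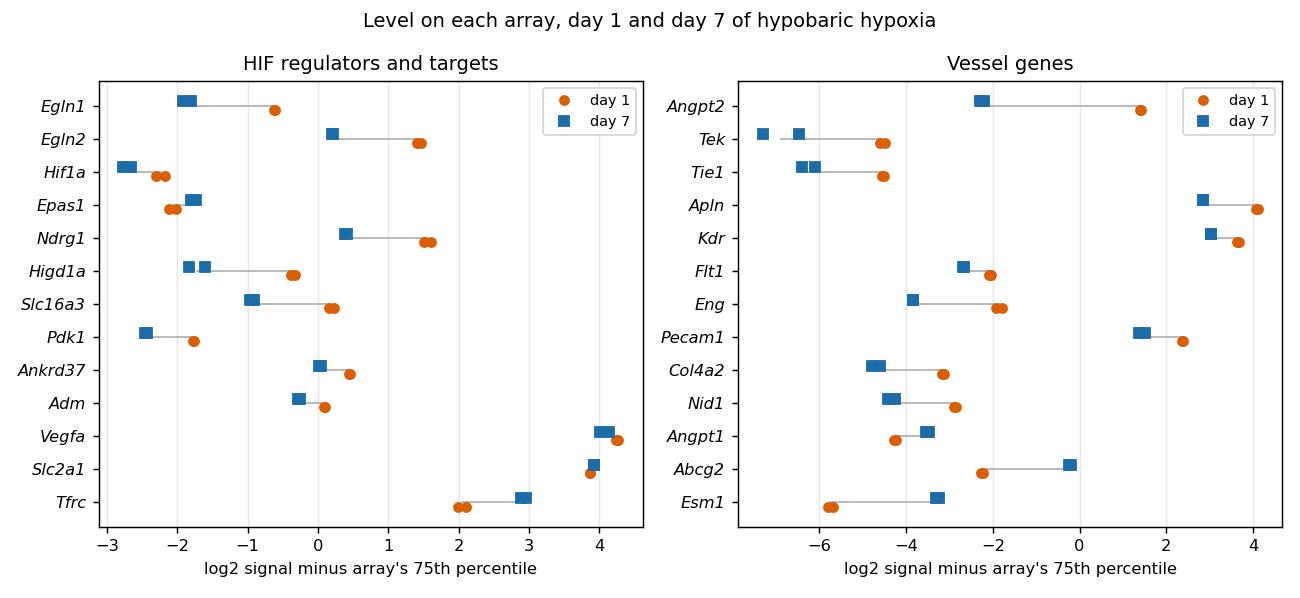
Log2 signal relative to the 75th percentile of the array (horizontal axis) of 13 HIF regulators and targets (left) and 13 vessel genes (right), with a circle for each day 1 array and a square for each day 7 array; grey lines join the group means. Squares lie left of circles for Egln1, Egln2, Apln and Angpt2 and right of them for Tfrc, Angpt1, Abcg2 and Esm1, while those of Slc2a1 nearly coincide.

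Angpt2 had the largest fall among the vessel genes. This ligand loosens capillaries by blocking the Tek receptor and is made by endothelial cells that sprout. Its single probe, with those of 2 other genes whose falls rest on 1 probe, is given here with its start in the transcript. The probes are 60 bases of rat genome build rn4, at chr16:75939239-75939298 (plus strand, Angpt2), chr1:185972062-185972121 (minus strand, Aldoa, a glycolytic enzyme) and chr17:87851390-87851449 (plus strand, Vim, an intermediate filament of reactive glia). They begin at base 1331, 581 and 711 of the annotated transcript. Transcript lengths are not given here, so the distance of these probes from the 3′ end cannot be read from the starts. No base is capitalised, since no motif was sought in them.
Angpt2 probe: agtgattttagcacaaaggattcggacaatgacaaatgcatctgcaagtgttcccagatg
Aldoa probe: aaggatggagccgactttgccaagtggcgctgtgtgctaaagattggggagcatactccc
Vim probe: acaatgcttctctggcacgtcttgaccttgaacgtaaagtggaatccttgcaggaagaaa
Angpt2 stood at 1.41 and 1.39 on day 1, at -0.55 and -0.61 on day 3 and at -2.21 and -2.30 on day 7. Each step was far larger than the gap between the arrays of a day, and the fall to day 7 was 12.6-fold (-3.65 ± 0.049, adjusted p = 0.000112). The receptor genes Tek and Tie1 did not rise well above background on day 7 and were tested only through their day 1 signal. Their falls are given as at least 3.21-fold and 2.85-fold (adjusted p = 0.00342 and 0.000849). These p-values rest in part on signals below background.

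Of the 24 angiogenic ligands and receptors tested, 14 were lower and 4 higher, with a median of -0.30 (between -0.34 and -0.035 under the other scalings). Kdr, the main Vegfa receptor, stood at 3.67 and 3.63 on day 1, at 3.66 and 3.70 on day 3 and at 3.03 on both day 7 arrays (-0.61 ± 0.037, adjusted p = 0.000406). Flt1, the decoy-like receptor, fell by 0.61 ± 0.058 (adjusted p = 0.00123), and Ramp3, a co-receptor for Adm, by 1.66 ± 0.036 (adjusted p = 0.000155). Angpt1, the stabilising counterpart of Angpt2, went the other way, from -4.27 and -4.24 to -3.47 and -3.55 (0.75 ± 0.049, adjusted p = 0.000484). Esm1, an endothelial tip cell proteoglycan, stood at -5.81 and -5.69 on day 1 and at -3.25 and -3.30 on day 7 (2.47 ± 0.066, adjusted p = 0.00016), with day 3 between. The arrays of Angpt1 and Esm1 did not overlap between the days.

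Genes of the vascular basement membrane, the collagen and laminin sheet around vessels, were lower in 9 of 12 and higher in 1 (median -0.56, between -0.64 and -0.29). Col4a2 fell from -3.18 and -3.12 to -4.61 and -4.78 (-1.54 ± 0.070, adjusted p = 0.00025). Its partner chain Col4a1 fell at both of its probes, by 0.57 ± 0.046 and 1.63 (adjusted p = 0.000758 for the first). Nid1, a linker, and the laminin chains Lama5 and Lamb2 fell by 1.45 ± 0.076, 0.94 ± 0.058 and 0.82 ± 0.051 (adjusted p = 0.000319, 0.000435 and 0.000442).

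Endothelial markers split. Of 29 tested, 14 were lower and 11 higher (median -0.26, between -0.29 and 0.0077, and -0.15 without the first day 1 array). Eng, a co-receptor of proliferating endothelium, fell from -1.92 and -1.79 to -3.84 on both arrays (-1.99 ± 0.068, adjusted p = 0.000185), and Nos3, the endothelial nitric oxide synthase, by 1.55 ± 0.047 (adjusted p = 0.000166). Pecam1, a junction protein of all endothelium, fell by 0.92 ± 0.056 (adjusted p = 0.000418). Some transporters of the blood-brain barrier were higher: Abcg2, a drug efflux pump, went from -2.22 and -2.27 to -0.20 and -0.25 (2.02 ± 0.041, adjusted p = 0.00015). Slco1a2, an organic anion carrier, rose by 1.77 ± 0.054 and Mfsd2a, a lipid carrier that keeps the barrier closed, by 1.01 ± 0.056 (adjusted p = 0.000171 and 0.000345). In contrast, the barrier junction gene Cldn5 fell by 0.45 ± 0.058 (adjusted p = 0.00298), and the glucose transporter Slc2a1, given above, was not called. The clotting factor Vwf and the junction cadherin Cdh5 were not called (-0.14 ± 0.047 and 0.25 ± 0.11, adjusted p = 0.0502 and 0.11), but the other probe of Vwf was called lower (-0.21, adjusted p = 0.0117). Pericyte and smooth muscle markers were lower in 6 of 13 and higher in 2 (median -0.084, between -0.085 and 0.18). Tagln and Myh11, contractile proteins, fell by 1.47 ± 0.055 and 1.23 ± 0.10 (adjusted p = 0.000208 and 0.000827), the second with -2.28 at its other probe.

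Red blood cell genes were higher on day 7 and had the highest median of the 44 lists, 0.79 (between 0.57 and 1.06), except after quantile normalization, where it was 0.65 against 0.68 for ependyma and cilia genes. Of 24 tested, 15 were higher and 2 lower. The promoter of Alas2, the erythroid enzyme that starts heme synthesis, is shown as that of the best-known member, with the letters AGATAA of a GATA factor site in capitals; it is at chrX:22895200-22895499 of GRCr8 (plus strand).
Alas2: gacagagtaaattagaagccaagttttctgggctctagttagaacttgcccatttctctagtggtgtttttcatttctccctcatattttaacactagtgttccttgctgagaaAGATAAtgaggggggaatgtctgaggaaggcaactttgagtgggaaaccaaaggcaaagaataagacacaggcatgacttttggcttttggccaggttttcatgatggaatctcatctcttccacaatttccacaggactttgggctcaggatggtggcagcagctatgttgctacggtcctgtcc
AGATAA was found on either strand in 5 of 18 red cell promoters (27.8%) and in 11.3% of all promoters. Alas2 stood at 0.72 and 0.81 on day 1, at 2.28 and 2.29 on day 3 and at 2.66 and 2.75 on day 7 (1.94 ± 0.055, adjusted p = 0.000161). Hemgn, a nuclear protein of red cell precursors, stood at -3.40 and -3.44 on day 1 and at -1.48 and -1.38 on day 7 (1.99 ± 0.051, adjusted p = 0.000155). Both genes were higher on each day 7 array than on either day 1 array, with most of the step before day 3.

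The globins moved with them. Hbb-b1, a beta chain, went from 6.47 and 6.44 to 7.46 and 7.52 (1.03 ± 0.045, adjusted p = 0.000236), and its other probe gave 1.20. Hba-a2, an alpha chain, rose by 0.83 ± 0.068 (adjusted p = 0.000817), with 1.06 at its other probe; globin copies are near-identical, so their probes may share signal. Ahsp, the alpha globin chaperone, rose by 0.92 ± 0.038 (adjusted p = 0.000225) and by 0.98 at its other probe. The band 3 anion exchanger Slc4a1 went from -1.88 and -1.95 to -0.997 and -1.08 (0.88 ± 0.058, adjusted p = 0.000498), and Rhag, a red cell gas channel, rose by 1.32 ± 0.16 (adjusted p = 0.00219). The 2 members that were lower were Epor, the erythropoietin receptor (-0.62), and Gypc, a membrane glycophorin (-0.42).

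White blood cell genes did not move as a group. Neutrophil and platelet genes were higher in 4 of 20 and lower in 4 (median -0.090, between -0.051 and 0.29). The neutrophil proteins S100a9 and S100a8 stood at -1.52 and -1.40, and at -1.86 and -1.79, on day 1, and fell by 1.81 ± 0.12 and 1.16 ± 0.067 (adjusted p = 0.000484 and 0.000383). Alox15, a lipoxygenase, went from -2.24 and -2.26 to -0.09 and -0.13 (2.14 ± 0.035, adjusted p = 0.00013), and Camp, a granule peptide, rose by 0.93 ± 0.041 (adjusted p = 0.000244). Lymphocyte genes were higher in 2 of 11 and lower in 2 (median 0.024, between -0.0029 and 0.39), and 6 were below background on both day 7 arrays. Cd52, a leukocyte surface protein, rose by 1.61 ± 0.051 (adjusted p = 0.000172). The T cell genes Cd3e and Lck, below background on day 7, were at least 1.49-fold and 1.56-fold lower (adjusted p = 0.0142 and 0.0378), calls that were lost without either day 1 array or the second day 7 array (adjusted p = 0.0589 to 0.149). With normexp background correction they stood at 0.15 and 0.23, not called. MHC class II genes were lower in 2 of 7 and higher in none (median -0.049, between -0.038 and 0.22), and the invariant chain Cd74 was not called (-0.05 ± 0.084, adjusted p = 0.637).

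**Figure D4:**
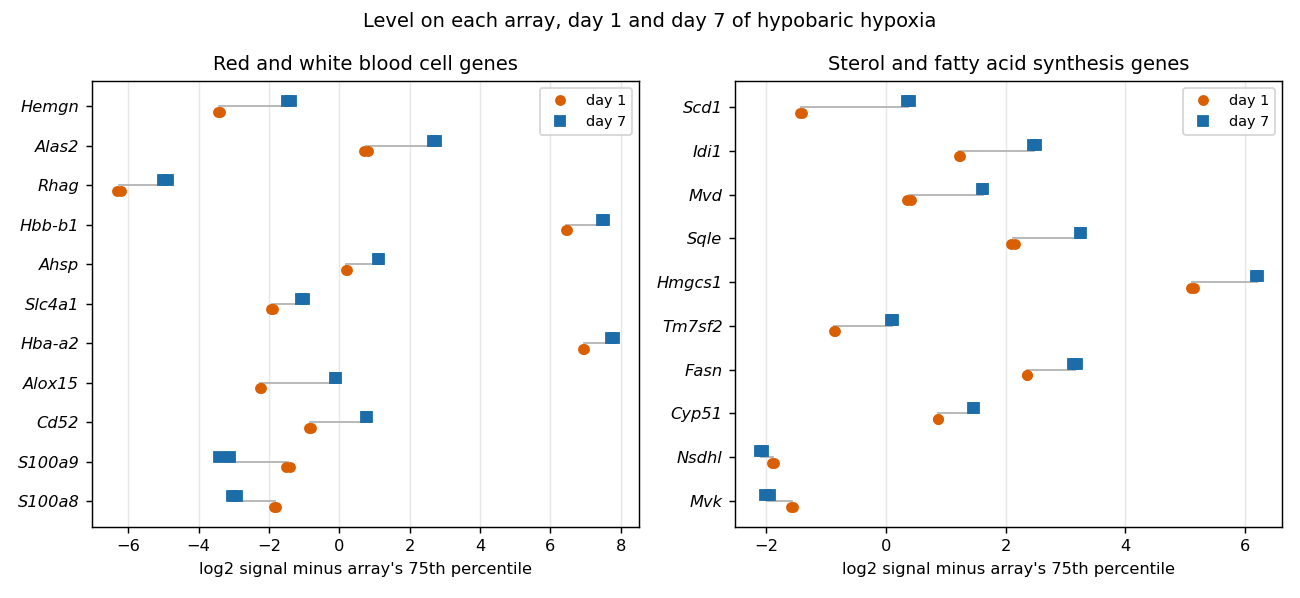
Log2 signal relative to the 75th percentile of the array (horizontal axis) of 11 blood cell genes (left) and 10 sterol and fatty acid genes (right), with a circle for each day 1 array and a square for each day 7 array; grey lines join the group means. Squares lie right of circles for Hemgn, Alas2 and Scd1 and left of them for S100a8, S100a9, Nsdhl and Mvk.

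Cholesterol and fatty acid synthesis genes were higher in 23 of 30 and lower in 3 (median 0.59, between 0.41 and 0.86). Scd1, a desaturase, went from -1.44 and -1.41 to 0.35 and 0.39 (1.80 ± 0.044, adjusted p = 0.000155). Idi1, an isomerase of the isoprenoid steps, went from 1.21 and 1.23 to 2.45 and 2.51 (1.26 ± 0.043, adjusted p = 0.000183). Sqle, which makes the first oxygenated sterol precursor, went from 2.10 and 2.15 to 3.24 and 3.25 (1.12 ± 0.037, adjusted p = 0.000178). In all of these the groups were separated by more than 1 log2 unit and day 3 lay between. Mvd, Hmgcs1 and Tm7sf2, enzymes of the mevalonate and sterol steps, rose by 1.22 ± 0.057, 1.08 ± 0.043 and 0.97 ± 0.033 (adjusted p = 0.00026, 0.000214 and 0.000185), and Fasn, the fatty acid synthase, by 0.80 ± 0.040 (adjusted p = 0.000294). The 3 genes that were lower were Mvk (-0.41), Pmvk (-0.36) and Nsdhl (-0.19). The letters CACCCCAC of a sterol response element were in 1 of 21 promoters (4.76%) and in 2.57% of all.

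Of 19 glycolysis genes, 7 were lower and 6 higher (median 0.0017, between -0.36 and 0.27). This split depended on the scaling: after quantile and after cyclic loess normalization 15 were lower and 0 higher, and under median centring 4 were lower and 11 higher. Aldoa went from 3.75 and 3.71 to 1.98 on both arrays (-1.75 ± 0.034, adjusted p = 0.000139). Pkm, pyruvate kinase, fell at both probes, by 1.04 ± 0.066 (adjusted p = 0.000456) and 1.28, and Pfkl, a phosphofructokinase, by 0.58 ± 0.051 (adjusted p = 0.000963) and by 0.66 at its other probe. Ldha, which makes lactate, was not called (0.09 ± 0.071, adjusted p = 0.32), and was called lower after quantile normalization (-0.30, adjusted p = 0.0132). Pfkfb4, a kinase that drives glycolysis, was below background on day 7 and at least 2.05-fold lower by the processed signal only (adjusted p = 0.000777). With normexp background correction it was at -0.002 (adjusted p = 0.981).

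Genes of oxidative phosphorylation, the respiratory chain and ATP synthase, were higher in 59 of 75 and lower in 7 (median 0.47, between 0.13 and 0.74). After quantile normalization 35 were higher and 13 lower, and after cyclic loess 33 and 16. The complex I subunits Ndufa10 and Ndufa5 rose by 1.38 ± 0.048 and 0.89 ± 0.036 (adjusted p = 0.000187 and 0.000221), whereas the ATP synthase beta subunit Atp5b went from 3.34 and 3.32 to 2.10 and 2.06 (-1.25 ± 0.037, adjusted p = 0.000162). Cytosolic ribosomal proteins were higher in 75 of 79 and lower in none, with a median of 0.53 (between 0.070 and 0.80). After quantile normalization 35 were higher and 8 lower, and after cyclic loess 17 and 8. Fau went from 6.28 and 6.27 to 7.00 and 6.96 (0.71 ± 0.035, adjusted p = 0.00029), and Rpl12 and Rpl30 rose by 0.60 ± 0.033 and 0.66 ± 0.036 (adjusted p = 0.000341 and 0.000345). The other probes of these ribosomal genes gave 0.61 and 0.69 for Fau, 0.55 for Rpl12, and 0.50 and 0.63 for Rpl30. Proteasome subunits were higher in 21 of 31 and lower in 4 (median 0.35, between 0.028 and 0.62), but in 11 and 7 after quantile normalization and in 10 and 8 after cyclic loess, with Psmc6 at 1.08 ± 0.043 and Psmd7 at -1.12 ± 0.042 (adjusted p = 0.000216 and 0.000201). These lists hold mostly bright genes, and the brightest decile of all genes had a median of 0.40; the part of level in their change was not tested.

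**Figure D5:**
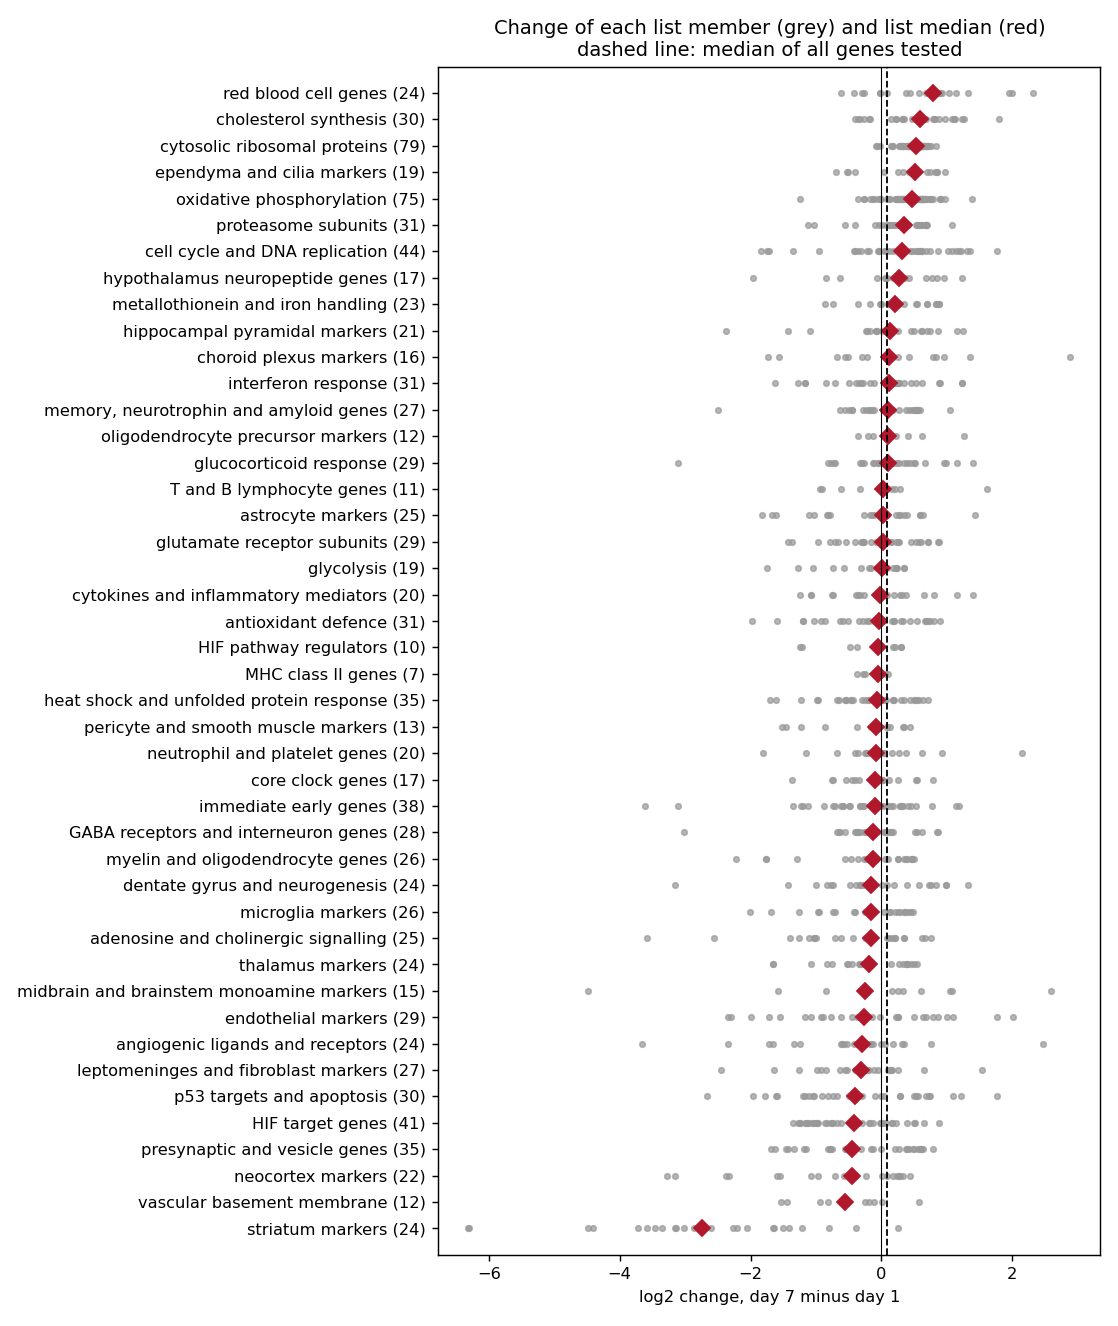
Log2 change between day 7 and day 1 (horizontal axis) of each tested member (grey points) of the 44 gene lists (rows, with the number tested), and the median of the list (red diamond). The dashed line is the median of all genes, 0.080; striatum markers lie lowest at -2.74 and red blood cell genes highest at 0.79.

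Immediate early genes respond to neuronal activity or stress within minutes. They were lower in 17 of 38 and higher in 11 (median -0.10, between -0.14 and 0.17). Dusp1, a phosphatase induced by stress, stood at -0.83 and -0.74 on day 1, at -3.63 and -3.51 on day 3 and at -3.88 and -3.92 on day 7 (-3.12 ± 0.062, adjusted p = 0.000143). Arc, a synaptic plasticity protein, went from 2.59 and 2.61 to 1.26 and 1.22 (-1.36 ± 0.036, adjusted p = 0.000157). Fos, the prototype of the class, went from -1.72 and -1.79 to -2.67 and -2.59 (-0.88 ± 0.066, adjusted p = 0.000673), with day 3 already at -2.55 and -2.67. For these genes both later groups lay below day 1. Egr2 and Fosl2, transcription factors, fell by 1.20 ± 0.036 and 1.12 ± 0.046 (adjusted p = 0.000164 and 0.00022), Fosl2 with -0.59 at its other probe. Egr1 fell by 0.33 ± 0.033 (adjusted p = 0.0014) and 1.73 at its other probe, but the first was not called under median centring (-0.063, adjusted p = 0.237). Nr4a3, a nuclear receptor of the same class, rose by 1.13 ± 0.046 (adjusted p = 0.00022) and 0.64 at its other probe, and Bdnf, the activity-dependent neurotrophin, by 0.53 ± 0.045 (adjusted p = 0.000864), from -2.56 and -2.53 to -1.99 and -2.05. Striatal markers were higher on day 1 as well, with summed levels given above, and their part in this list was not tested.

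Glucocorticoid response genes, targets of the stress hormone receptor, were higher in 12 of 29 and lower in 9 (median 0.095, between -0.048 and 0.36). Among all genes tested 38.3% were higher and 28.2% lower, shares close to those of this list. Dusp1, given above among the immediate early genes, is also a member and fell most by p (-3.12 ± 0.062, adjusted p = 0.000143). Tsc22d3 went from 3.19 and 3.15 to 4.16 and 4.15 (0.98 ± 0.035, adjusted p = 0.000192) and Fkbp5, which dampens the receptor, from 1.80 and 1.78 to 2.30 and 2.29 (0.50 ± 0.047, adjusted p = 0.00114). Sgk1, a kinase of the same response, was not called (-0.05 ± 0.038, adjusted p = 0.322), and was called higher under median centring (0.22, adjusted p = 0.00709). Il6r, a cytokine receptor, rose by 1.40 ± 0.033 (adjusted p = 0.000155). The mineralocorticoid receptor Nr3c2 rose by 1.15 ± 0.042 at its 3′ probe (adjusted p = 0.000197) and was not called at the other (-0.20). Core clock genes were lower in 6 of 17 and higher in 4 (median -0.10, between -0.19 and 0.17), with the repressor Nr1d1 at -1.37 ± 0.091 and Cry1 at 0.55 ± 0.056 (adjusted p = 0.000494 and 0.00149).

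Astrocyte markers were lower in 11 of 25 and higher in 8 (median 0.021, between -0.37 and 0.29). Vim, whose probe is printed above, went from 1.89 and 1.88 to 0.09 and 0.03 (-1.82 ± 0.045, adjusted p = 0.000155), with day 3 at 0.81 and 0.74. Mlc1, a membrane protein of astrocyte endfeet, fell by 1.68 ± 0.036, and Slc7a10, a serine transporter, rose by 1.43 ± 0.036 (adjusted p = 0.000155 for both). Gfap, the astrocyte filament gene, had no agreed direction: the probe that begins at base 1674 of the transcript went from -0.52 and -0.43 to -2.13 and -2.05 (-1.62 ± 0.053, adjusted p = 0.000177), while the probe that begins at base 1215 was called higher by 0.58. Aqp4, the water channel of the endfeet, rose by 0.59 ± 0.053 at its 3′ probe (adjusted p = 0.00102), with -0.13 and 0.15 at the others. The glutamate transporter Slc1a2 rose by 0.35 ± 0.056 (adjusted p = 0.00558) and by 0.45 at its other probe.

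Of 26 microglia markers, 10 were higher and 10 lower (median -0.15, between -0.15 and 0.12). Csf1r, the survival receptor, went from -0.35 and -0.32 to -1.99 and -2.06 (-1.69 ± 0.042, adjusted p = 0.000155), and was at -0.50, not called, at its other probe. Tmem119 fell by 0.97 ± 0.036 (adjusted p = 0.000201) and by 1.33 at its other probe. P2ry12 and Cx3cr1, receptors for nucleotides and fractalkine, fell by 0.71 ± 0.037 and 0.74 ± 0.070 (adjusted p = 0.000327 and 0.0012). Of the higher markers, Cd53, a tetraspanin of leukocytes, and Ptprc, the leukocyte common antigen, rose by 0.46 ± 0.036 and 0.36 ± 0.034 (adjusted p = 0.000706 and 0.00114).

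Myelin and oligodendrocyte genes were lower in 11 of 26 and higher in 9 (median -0.14, between -0.21 and 0.13), and in 14 and 2 after cyclic loess normalization. Cldn11, the myelin tight junction protein, went from 0.17 and 0.20 to -2.05 and -2.03 (-2.23 ± 0.038, adjusted p = 0.00013). Mal and Cnp, myelin membrane proteins, fell by 1.76 ± 0.043 and 1.77 ± 0.061 (adjusted p = 0.000155 and 0.000189). Mbp, myelin basic protein, rose by 0.47 ± 0.084 at 1 probe (adjusted p = 0.00773) and not at the other (0.02). It was at -0.079 after cyclic loess normalization (adjusted p = 0.447). Oligodendrocyte precursor markers were higher in 4 of 12 and lower in 1 (median 0.10, between 0.078 and 0.37), with the matrix protein Vcan at 1.26 ± 0.058 (adjusted p = 0.000258) and 1.19 at its other probe.

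Presynaptic and vesicle genes were lower in 19 of 35 and higher in 12, with a median of -0.45 (between -0.38 and -0.18), or -0.31 with 1 gene at its bound and -0.28 without the first day 1 array. Rab3a, a vesicle GTPase, went from 0.39 and 0.34 to -1.27 and -1.26 (-1.62 ± 0.037, adjusted p = 0.000155). Syn1, which tethers vesicles, went from -0.75 and -0.71 to -1.90 and -1.92 (-1.18 ± 0.035, adjusted p = 0.000166). Snap25, of the fusion complex, fell at both probes, by 0.78 ± 0.033 (adjusted p = 0.000231) and 2.43, the larger fall at the 5′ probe. It was named after its values were seen. All presynaptic genes named here are falls, while the highest change in the list was 0.79. Glutamate receptor subunits were higher in 12 of 29 and lower in 11 (median 0.018, between -0.084 and 0.29). Grm5 and Gria1 fell by 1.42 ± 0.061 and 0.67 ± 0.033 (adjusted p = 0.000233 and 0.000287). GABA receptors and interneuron genes were lower in 13 of 28 and higher in 7 (median -0.13, between -0.27 and 0.14).

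Markers of the hippocampal cell fields did not move in 1 direction. Pyramidal markers were higher in 10 of 21 and lower in 6 (median 0.14, between -0.091 and 0.40), and dentate gyrus and neurogenesis genes were higher in 8 of 24 and lower in 12 (median -0.15, between -0.15 and 0.15). Dcx, a marker of newborn neurons, went from 0.44 and 0.48 to 1.44 and 1.47 (0.99 ± 0.046, adjusted p = 0.000259), and its other probe gave 1.16. Neurod1, a factor of immature granule neurons, went from -0.82 and -0.83 to -0.01 and 0.03 (0.83 ± 0.036, adjusted p = 0.000235), and Tubb3, a neuronal tubulin, rose by 1.32 ± 0.042 (adjusted p = 0.000172). The granule cell calcium buffer Calb1 fell by 1.01 ± 0.035 (adjusted p = 0.000191). The striatum expresses Calb1 too, as it does Penk of this list. Wfs1, a member of both the dentate and the pyramidal list, fell by 1.43 ± 0.047 (adjusted p = 0.000178). Dcx and Neurod1 were named after their values were seen, and more members of the dentate list were lower than higher. Genes of memory, neurotrophins and amyloid were lower in 12 of 27 and higher in 10 (median 0.10, between -0.057 and 0.37). Mme, a peptidase that degrades amyloid beta, fell by 2.50 ± 0.10 (adjusted p = 0.00022). It stood at -2.82 and -2.71 on day 1, at -5.34 and -5.19 on day 3 and at -5.16 and -5.37 on day 7. The part of striatal transcripts in this fall was not tested. The neurotrophin receptor Ntrk2 ran from -0.87 at its 5′-most probe to 1.05 at its 3′-most. Adenosine and cholinergic genes were lower in 11 of 25 and higher in 7 (median -0.16, between -0.16 and 0.13); Adk, which clears adenosine, fell by 1.03 ± 0.052 (adjusted p = 0.000298).

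Cell cycle and DNA replication genes were higher in 23 of 44 and lower in 8 (median 0.32, between 0.32 and 0.59). Mki67, the standard marker of dividing cells, went from -3.22 and -3.21 to -1.79 and -1.92 (1.36 ± 0.057, adjusted p = 0.00023), and its other probes gave 0.40 and 1.54, both called higher. Birc5, needed for chromosome segregation, went from -4.22 and -4.08 to -2.35 and -2.42 (1.77 ± 0.062, adjusted p = 0.000191). Day 3 lay between the groups for Birc5, and for Mki67 it was close to day 7, at -1.96 and -2.01. Ect2, Ube2c and Ccna2, of cytokinesis and mitosis, rose by 1.19 ± 0.048, 1.30 ± 0.12 and 1.08 ± 0.088 (adjusted p = 0.000217, 0.0011 and 0.000807), and the other probe of Ccna2 gave 0.68. The replication genes Mcm6 (-1.75) and Rrm1 (-1.71) and the G1 cyclin Ccne2 (-1.84) were called lower. Targets of p53 and apoptosis genes were lower in 15 of 30 and higher in 11 (median -0.40, between -0.52 and -0.018, or -0.31 with 3 genes at their bound). Ei24 and Gadd45a, induced by DNA damage, fell by 2.66 ± 0.050 and 1.16 ± 0.082 (adjusted p = 0.000139 and 0.000573), and Ccng1, also a p53 target, rose by 1.22 ± 0.073 (adjusted p = 0.00041).

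Stress defence genes were divided. Antioxidant genes were lower in 15 of 31 and higher in 12 (median -0.037, between -0.12 and 0.23). Keap1, the inhibitor of the antioxidant factor Nrf, went from 0.29 on both arrays to -1.71 and -1.67 (-1.98 ± 0.034, adjusted p = 0.00013). Txnrd1, a thioredoxin reductase, fell by 1.20 ± 0.042 (adjusted p = 0.000189) and by 0.92 at its other probe, and catalase, Cat, by 1.19 ± 0.12 (adjusted p = 0.00125), while the superoxide dismutase Sod1 rose by 0.67 ± 0.033 (adjusted p = 0.000287). Heat shock and unfolded protein genes were lower in 16 of 35 and higher in 10 (median -0.069, between -0.29 and 0.20). Under median centring 12 were lower and 18 higher. The chaperone Hspb1 was at -1.70 ± 0.12 and the kinase Eif2ak3 at 0.71 ± 0.036 (adjusted p = 0.000587 and 0.000297). Metallothionein and iron genes were higher in 11 of 23 and lower in 3 (median 0.20, between 0.079 and 0.47), with the neuronal Mt3 at 0.70 ± 0.041 (adjusted p = 0.000381). Interferon response genes were higher in 15 of 31 and lower in 10 (median 0.12, between 0.040 and 0.38), and cytokines and mediators were higher in 7 of 20 and lower in 8 (median -0.028, between -0.029 and 0.24). The antiviral genes Isg20, Rsad2 and Mx1 rose by 1.23 ± 0.041, 1.23 ± 0.069 and 0.89 ± 0.038 (adjusted p = 0.000181, 0.000361 and 0.000231), whereas Ifit3 fell by 1.17 ± 0.067 (adjusted p = 0.000375). The inflammatory cytokine Il1b fell by 0.76 ± 0.034 (adjusted p = 0.000247), and with normexp background correction it was not called (-0.11, adjusted p = 0.161). Cxcl1, a chemokine of the same list, rose by 1.16 ± 0.044 (adjusted p = 0.000208).

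Unnamed probes and provisional gene names were left out of the ranking by size, as were genes whose arrays overlapped between the days. Among the 15 largest falls were Lhx8, Drd2, Isl1, Dmkn, Tulp2, Hal, Neu2, Hs3st5, Kcna5, Sh3rf2, Tnni3, Angpt2, Fosl1 and Adora2a. Lhx8, Drd2, Isl1, Sh3rf2 and Adora2a of these are on the striatal list. Outside that list, Neu2, a sialidase, went from -0.94 and -0.89 to -4.74 and -4.73 (-3.82 ± 0.037, adjusted p = 9.02e-05), and Tnni3, the cardiac troponin inhibitor, from -1.38 and -1.42 to -4.99 and -5.14 (-3.67 ± 0.069, adjusted p = 0.000139). Dmkn, an epidermal protein, and Kcna5, a potassium channel, were below background on day 7 and at least 17.4-fold and 9.003-fold lower (adjusted p = 0.000197 and 0.00016). Bounds for the other genes below background were 8.75-fold for Tulp2, 6.95-fold for Isl1, 5.47-fold for Sh3rf2, 3.66-fold for Hal, 3.60-fold for Hs3st5 and 2.91-fold for Fosl1, a Fos family factor (adjusted p from 0.000214 to 0.00171). Genes with a bound here passed the filter only through day 1, so their adjusted p rests in part on signals below background.

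The 15 largest rises among genes ranked in this way were Ttr, Ddc, Esm1, Syce1, Pamr1, Psors1c2, Alox15, Pcmtd1, Chmp4bl1, Abcg2, Hemgn, Gnrhr, Meox1, Alas2 and Depdc1. Outside that ranking, the highest rise of all genes tested was at a probe with no gene name, A_64_P114114, which was below background on day 1 and at least 24.4-fold higher on day 7 (adjusted p = 0.000168). Ddc, the decarboxylase that makes dopamine and serotonin, went from -0.72 and -0.88 to 1.75 and 1.82 (2.58 ± 0.088, adjusted p = 0.000184), and its other probe gave 1.42. Chmp4bl1, listed by the array as a membrane-remodelling protein like Chmp4b, went from 3.13 and 3.04 to 5.23 and 5.06 (2.06 ± 0.071, adjusted p = 0.000188). Pcmtd1 had no agreed direction, with 2.13 ± 0.26 at 1 probe (adjusted p = 0.00231) and -1.39 at the other. Gnrhr, the gonadotropin-releasing hormone receptor, and Meox1, a homeobox factor, rose by 1.96 ± 0.050 and 1.95 ± 0.066 (adjusted p = 0.000155 and 0.000183), and Syce1, a meiotic protein, by 2.32 ± 0.21 (adjusted p = 0.0011). Pamr1 and Depdc1 were below background on day 1 and were tested only through their day 7 signal. As measured, Pamr1 was 4.70-fold higher, which is no lower bound, and Depdc1 is given as at least 2.84-fold higher (adjusted p = 0.000541 and 0.00392). Psors1c2 rose by 2.14 ± 0.66 (adjusted p = 0.0433), a call lost without either day 1 array, either day 3 array or the second day 7 array (adjusted p = 0.0559 to 0.173).

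On day 3 most of these changes were partly complete. Among genes called higher on day 7, both day 3 arrays lay between the groups in 62.3%, above day 7 in 8.24% and below day 1 in 7.03%. Of genes called lower, they lay between in 56.3%. Among changes of at least 2-fold the share between was 70.5% of the rises and 72.4% of the falls. Day 3 was not tested against the others here. A gene called between 2 days has to differ in the direction that was called, so these shares describe only where the middle time fell.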

How the data were processed

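The deposited scanner files hold, per the file headers, 1 processed intensity per spot, background-subtracted by Agilent Feature Extraction 11.5.1.1, with probe positions on build rn4; the software is also named in the submitters' processing notes. The authors' deposited values are in log2 units. Their scaling is not stated; 96.7% to 97.4% of them lay within 0.05 of log2 processed signal minus the 75th percentile of the array, and these values were tried as an alternative.

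Controls and outlier-flagged spots were left out, log2 signals of a probe were averaged, and the 75th percentile over 30367 probes was subtracted. Probes well above background on both arrays of day 1 or of day 7 were kept (22646), and for each gene the brightest kept probe stood for it. Groups were compared with limma 3.58.1 in R 4.3.3 (lmFit, eBayes, two-sided) over the 6 exposed arrays, with 3 residual degrees of freedom and Benjamini-Hochberg adjustment. The procedure was tested on simulated data. Python 3.11.15, pandas 2.3.3, numpy 2.4.6, the data.table package, version 1.17.8, and matplotlib 3.10.9 were also used. A gene below background on both arrays of a group is given as at least the fold between the other group's mean and the higher of its own signal and the lowest signal called above background. On an array where its own signal was the higher, the measured value was used, and the fold is then no strict lower bound. Such genes passed the filter only through the other group, and their adjusted p rests in part on signals below background. No depth applies to arrays; their number limits the precision.

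The members and the 44 lists were chosen with earlier results of these data known. Named were the 15 largest called rises and falls with a symbol and separated arrays, up to 4 members of each list with the smallest p, and Vegfa, Angpt2, Kdr, Slc2a1, Slc16a3, Adm, Pdk1, Hif3a, Ldha, Hmox1, Alas2, Slc4a1, Gfap, Bdnf, Fos, Ttr, Adora2a, Drd2, Fkbp5, Sgk1 and Mki67. Some genes meeting the rule are not reported here, and other genes named were chosen after their values were seen. Of 1303 list symbols, 1165 were tested. Genes keep the symbols of the array annotation. Promoter sequences are from RefSeq (GRCr8). The replicate numbers of different days do not pair the arrays: the deviations of same-numbered arrays correlated between days at 0.13, 0.04 and -0.06.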

Additional observations from a re-analysis of the deposited data

How the results depend on the processing

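The totals of 7496 genes higher and 5525 lower stayed within 1.5 times under quantile, cyclic loess and normexp processing, the deposited values, no filter, a filter that asks for signal on all 4 arrays, averaging the probes of a gene, a trend in the prior, the 4 arrays alone, and, chosen after the data were seen, removal of the probe GC trend and the 3′-most probe. Under median centring 3595 genes were lower. A 2-fold minimum left 457 higher and 1824 lower. With the replicate number as a block, 7306 and 5408 were called; same-numbered arrays share only a number. Leaving out 1 array gave 6132 to 7348 higher and 4427 to 5488 lower. Calls were 57.6% higher, against 74.4% under median centring, 70.8% with normexp and 52.8% after cyclic loess.

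Some genes had the opposite sign, and the cause was not tested. After quantile and cyclic loess normalization these were Apoe (-0.012 and -0.11, against 0.42), Ldha (-0.30 and -0.36) and Slc2a1 (-0.21 and -0.27), and after cyclic loess Mbp (-0.079). Under median centring they were RT1-DMa (0.020) and Sgk1 (0.22). With normexp they were Cd3e (0.15), Hif3a (0.41), Lck (0.23) and RT1-DOb (0.39). RT1-DOb was at 0.90 in the deposited values and RT1-DMa at 0.031 without the GC trend. With the 3′-most probe RT1-Db1 was at -0.33 and Rpl37a at -0.15. The number of arrays and, for genes near background on day 7, the signal limit these changes.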

Other observations

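A further 5 lists stand outside the account above. Ependyma and cilia genes were higher in 12 of 19 and lower in 4 (median 0.52, between 0.51 and 0.78 under the other scalings), with Tekt4, a ciliary filament protein, at -1.68 and -1.64 on day 1 and -0.79 and -0.85 on day 7 (0.84 ± 0.046, adjusted p = 0.000343) and the axonemal motor Dnah11 at 0.86 ± 0.051 (adjusted p = 0.000396). Leptomeninges and fibroblast genes were lower in 16 of 27 and higher in 4 (median -0.32, between -0.32 and -0.049). Bmp6, a growth factor, fell by 2.46 ± 0.10, and Slc22a8, an organic anion transporter that the blood-brain barrier also uses, rose by 1.53 ± 0.053 (adjusted p = 0.000221 and 0.000185). Thalamus markers were lower in 13 of 24 and higher in 9 (median -0.18, between -0.19 and 0.099).

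Midbrain and brainstem monoamine markers were higher in 5 of 15 and lower in 5 (median -0.25, between -0.0091 and 0.33). The enzymes of amine synthesis were not ordered alike: Ddc (2.58), Dbh (1.07) and the vesicle transporter Slc18a2 (1.05) were called higher, while Th, the rate-limiting enzyme, was called lower (-1.58). These genes were singled out after their values were seen. Hypothalamic neuropeptide genes were higher in 8 of 17 and lower in 3 (median 0.27, between 0.31 and 0.54), with Gal at 0.95 ± 0.032 (0.53 at its other probe) and Pomc at 0.68 ± 0.047 (adjusted p = 0.000182 and 0.000548) and Cartpt at -0.84 ± 0.043 (adjusted p = 0.000311).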
